A study of Homo sapiens with 8 samples.

Results

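The genes described here encode heat shock proteins, their J-domain partners and the chaperonins: 89 genes of 26883 genes and unmatched transcripts in a table of transcript levels from HEK293T cells, a human embryonic kidney line that carries a viral large T antigen. They were chosen by name, as every gene whose symbol starts with HSPA, HSPB, HSPH, HSP90, DNAJA, DNAJB or DNAJC, together with HSPD1, HSPE1, TCP1 and 7 CCT genes, without pseudogenes. Of the 89 genes, 79 are chaperone or co-chaperone genes: 15 of the HSP70 and HSP110 families, 3 of the HSP90 family, 7 small heat shock proteins, 4 DNAJA, 12 DNAJB and 28 DNAJC genes, 2 subunits of the mitochondrial chaperonin and 8 of the cytosolic chaperonin. The other 10 share only the start of the symbol (antisense, divergent and readthrough genes, and the binding proteins HSPBP1 and HSPBAP1) and were kept in the count of 89. Of all 89, 56 were above 0 in every library, and DNAJC5B and DNAJB5-DT were listed at 0 in all 8.

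Molecular chaperones hold unfolded proteins and let them fold. HSP70 proteins bind short hydrophobic stretches and release them as ATP is turned over, J-domain proteins (DNAJA, DNAJB, DNAJC) bring them their clients and start that turnover, HSP110 proteins exchange the nucleotide, and HSP90 proteins act late, on kinases and receptors that are nearly folded. Small heat shock proteins keep unfolding proteins from clumping without using ATP, and chaperonins are hollow rings that enclose a client: HSPD1 with its lid HSPE1 in mitochondria, and TCP1 with the CCT subunits, which fold actin and tubulin, in the cytosol. Many of these genes are switched on by heat shock factors that bind a repeated element in the promoter.

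The study asked which RNAs of human cells carry NAD, the redox cofactor, at the 5′ end in place of the usual methylguanosine cap, and whether the enzyme DXO, which can take this cap off, limits them. There were 2 libraries of unmodified (WT) HEK293T total RNA depleted of ribosomal RNA with RiboMinus, 3 libraries of WT HEK293T RNA after NAD-Capture, and 3 NAD-Capture libraries of the HEK293T line labelled DXO-KO. All came from untreated cells under standard culture, and neither the number of DXO-KO clones nor separate cultures are named in the labels, so p-values measure the spread between these libraries, which may be technical. NAD-Capture swaps the nicotinamide of NAD for an alkyne with the enzyme ADPRC, clicks biotin onto it and pulls the RNA down on streptavidin; libraries made without ADPRC, the protocol's background control, were not analysed here. RiboMinus RNA went through a TruSeq kit and captured RNA through a SMARTer low-input kit, so capture and library kit cannot be told apart in any comparison with RiboMinus.

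Values are FPKM, fragments per kilobase of a transcript relative to all mapped fragments, summed over the transcripts of a gene, and differences are in log2(FPKM + 1), which understates the change of genes near 0. The step between low values gave an estimated depth equivalent to 10724542 and 8727277 fragments on transcripts in the RiboMinus libraries, 165340 to 248530 in the WT NAD-Capture libraries and 80423 to 802378 in the DXO-KO-labelled libraries. One fragment on a transcript with 1 kb of usable length was thus worth about 0.0932 and 0.115 FPKM in RiboMinus, 4.02 to 6.05 in the WT NAD-Capture libraries and 1.25, 7.26 and 12.4 in libraries 1, 2 and 3 labelled DXO-KO. The 89 genes made up 1.13% and 1.07% of the summed FPKM in RiboMinus, 0.487%, 0.361% and 0.554% in the WT NAD-Capture libraries, and 0.378%, 0.117% and 0.169% in the DXO-KO-labelled libraries. Their own sum was 6099 and 5840 FPKM in RiboMinus and 7738, 7604 and 6369 in the WT NAD-Capture libraries. In the DXO-KO-labelled libraries it was 4813, 10030 and 11755. The total over all rows was 541482 and 544947 in RiboMinus and 1148710 to 8558870 after capture. The lower shares thus go with a larger total. Over the 89 genes, the rank correlation between libraries of a group (Spearman's rho, a description across genes) was 0.991 in RiboMinus, 0.870 to 0.902 in the WT NAD-Capture libraries and 0.902 to 0.947 in the DXO-KO-labelled libraries. Of 7 genes fixed as markers of the HEK293 line, 5 were above 1 FPKM in both RiboMinus libraries, and of 8 markers of other cell types 0 were, with a summed level of 0 to 0.229 FPKM there. In the captured libraries the summed level of these 8 was 2.92 to 35.4 FPKM. INS, KRT5 and MYH7, at 0 in RiboMinus, reached 12.8 to 24.9, 2.87 to 7.40 and 0.800 to 5.13 FPKM in WT capture, PECAM1 was at 0, 2.88 and 5.75 there, and HBB and PTPRC were at 0 in all 8 libraries. ALB was at 0.229 and 0 FPKM in RiboMinus and at 0 after capture, and CD3E was at 0 in WT capture. The summed level of the 7 HEK293 markers was higher after capture too, at 88.9 to 150 FPKM against 32.0 in RiboMinus. Among them PAX2 went from 0.0831 and 0.204 FPKM to 6.16, 4.77 and 7.17 in WT capture, while INA fell from 7.73 and 7.98 to 5.17, 2.01 and 4.01. The scarce chaperone genes HSPB6, HSPB7, HSPA1L, DNAJB8 and DNAJB13 were higher in WT capture as well. The part of other cell types' RNA in those results was not tested. DXO itself was at 11.2 and 14.3 FPKM in RiboMinus, 33.2, 17.2 and 27.1 in the WT NAD-Capture libraries, and 128, 61.6 and 71.7 in the DXO-KO-labelled libraries. Its captured RNA was thus not lower under the label that names its loss. The line labelled DXO-KO has no RiboMinus library, so its DXO RNA before capture was not measured and these values cannot check the label. Every direction given for these 3 libraries rests on that label.

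NAD that is put in as transcription starts takes the place of a first A. A shared heat shock element is what the promoters of this gene group are known for. For these reasons 5 promoter windows are shown. They belong to the genes with the most abundant RNA in the captured libraries and to HSPD1, the neighbour of HSPE1. Each window runs from 250 bases before to 50 after an annotated start (RefSeq, GRCh38.p14), 5′ to 3′ on the gene's strand. A single capital marks the base at the annotated start and a run of capitals marks a match to the heat shock element, searched as GAANNTTCNNGAA and its reverse complement TTCNNGAANNTTC. The windows lie at chr2:197500129-197500428 on the plus strand (HSPE1), chr2:197500225-197500524 and chr2:197499791-197500090 on the minus strand (HSPD1, first and second start), chr14:102086995-102087294 on the minus strand (HSP90AA1) and chr6:44247693-44247992 on the plus strand (HSP90AB1).
HSPE1: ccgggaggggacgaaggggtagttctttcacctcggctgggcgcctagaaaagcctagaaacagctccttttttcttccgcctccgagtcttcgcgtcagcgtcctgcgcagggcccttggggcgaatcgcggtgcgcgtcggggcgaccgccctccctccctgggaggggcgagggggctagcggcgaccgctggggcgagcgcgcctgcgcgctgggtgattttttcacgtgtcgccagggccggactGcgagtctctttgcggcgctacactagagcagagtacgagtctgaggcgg
HSPD1 first start: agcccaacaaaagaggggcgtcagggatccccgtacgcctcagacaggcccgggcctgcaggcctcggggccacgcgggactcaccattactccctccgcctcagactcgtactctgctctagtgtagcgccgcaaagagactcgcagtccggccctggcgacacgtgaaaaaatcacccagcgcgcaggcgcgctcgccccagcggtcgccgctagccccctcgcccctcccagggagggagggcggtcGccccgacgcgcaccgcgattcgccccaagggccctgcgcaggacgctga
HSPD1 second start: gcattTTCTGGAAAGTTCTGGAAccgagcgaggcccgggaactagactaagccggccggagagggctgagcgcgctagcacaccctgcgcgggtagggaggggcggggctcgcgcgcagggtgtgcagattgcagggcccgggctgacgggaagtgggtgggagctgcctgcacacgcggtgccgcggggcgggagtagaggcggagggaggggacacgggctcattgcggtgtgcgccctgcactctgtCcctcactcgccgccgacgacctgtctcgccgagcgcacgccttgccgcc
HSP90AA1: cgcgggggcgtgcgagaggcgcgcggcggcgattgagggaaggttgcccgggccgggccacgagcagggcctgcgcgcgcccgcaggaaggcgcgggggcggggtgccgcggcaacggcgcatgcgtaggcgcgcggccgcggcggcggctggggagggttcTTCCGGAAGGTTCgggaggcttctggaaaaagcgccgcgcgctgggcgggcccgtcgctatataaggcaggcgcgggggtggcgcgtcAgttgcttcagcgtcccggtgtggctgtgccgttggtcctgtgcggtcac
HSP90AB1: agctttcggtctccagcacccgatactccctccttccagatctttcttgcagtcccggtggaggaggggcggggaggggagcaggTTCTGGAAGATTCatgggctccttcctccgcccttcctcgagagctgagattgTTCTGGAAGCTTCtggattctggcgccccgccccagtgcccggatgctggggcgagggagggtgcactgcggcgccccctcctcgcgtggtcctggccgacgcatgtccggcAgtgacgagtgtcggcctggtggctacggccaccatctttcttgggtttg
The window of HSPE1 overlaps the first window of HSPD1 on the opposite strand, since the 2 genes are transcribed away from each other. The annotated start was G for HSPE1, G and C for HSPD1, and A for the windows shown of HSP90AA1 and HSP90AB1. For these 2 genes the window shown is the one that holds the element: HSP90AA1 has 1 more annotated start (G) and HSP90AB1 has 2 more (A and C), and no match was found in those windows, which are not shown. The element was found in none of the bases shown for HSPE1, in 2 overlapping matches in the second window of HSPD1, in 1 match in HSP90AA1 and in 2 matches in HSP90AB1. The second window of HSPD1 lies outside the window of HSPE1, so its matches were not counted for HSPE1. An annotated start is not a start measured in these cells.

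In RiboMinus, the constitutive HSP70 protein gene HSPA8 stood first, at 660 and 610 FPKM, followed by the constitutive HSP90 gene HSP90AB1 at 539 and 514, the chaperonin subunit gene CCT3 at 518 and 488 and the stress-inducible HSP90 gene HSP90AA1 at 422 and 429. HSP90AB1 lay above CCT3 within each of these libraries, though their ranges across the libraries overlapped. After capture HSPE1, which encodes the lid of the mitochondrial chaperonin, stood first in both cell groups by mean level. It was at 1896, 1650 and 1782 FPKM in the WT NAD-Capture libraries and at 631, 2708 and 3250 in the DXO-KO-labelled libraries, and HSP90AA1 and HSP90AB1 held the second and the third mean rank in both. The first library labelled DXO-KO, the deepest of the captured ones, had the lowest HSPE1 level of the 6.

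**Figure D1:**
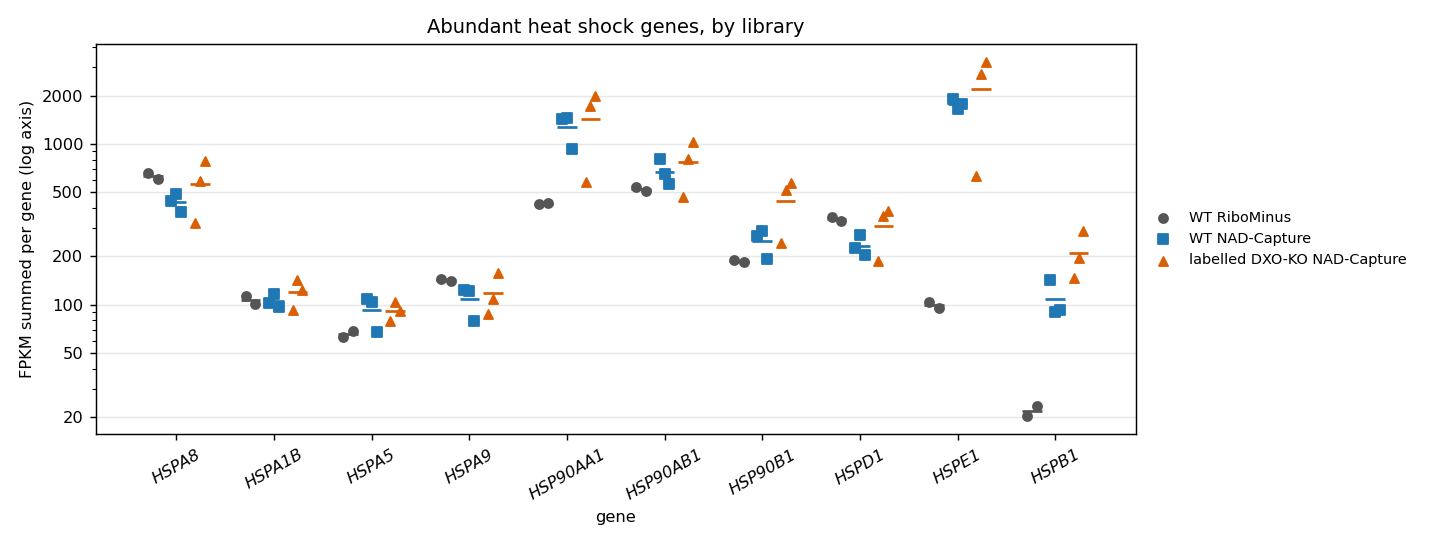
FPKM per gene (log axis) of 10 abundant heat shock genes in each of the 8 libraries, with 1 point per library and a bar at the mean of each group (WT RiboMinus in grey, WT NAD-Capture in blue, NAD-Capture labelled DXO-KO in orange). HSPE1 sits at 96.3 and 104 in RiboMinus and from 631 to 3250 in the captured libraries, while HSPA1B sits between 93.5 and 144 throughout.

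The first comparison asked which RNAs were more or less abundant after NAD-Capture than in WT RNA depleted of ribosomal RNA. Among the chaperone genes the picture was split: the RNA of HSPE1, HSP90AA1 and the small heat shock protein HSPB1 was higher after capture, and that of 7 of the 8 cytosolic chaperonin subunits, HSPH1 and HSPA4 was lower. Of the 89 genes, 79 had a mean of at least 1 FPKM and were tested, and 26 passed an adjusted p of 0.05, with 13 higher and 13 lower. Over all 17335 genes and transcripts tested the same test called 24.5%, with 16.6% higher and 7.87% lower. The median difference of the 79 was 0.03 on the log2 scale, against 0.22 over everything tested. Of the 79, 15 had a RiboMinus mean under 1 FPKM and reached the minimum only through the captured libraries, where they are high, so their direction was largely set by that choice. They account for 7 of the 13 higher calls (HSPB6, HSPB7, HSPA1L, HSPA12B, DNAJB8, DNAJB13 and DNAJC27-AS1), and over everything tested 5233 entered in that way, of which 35% were called higher and 0 lower. Of the 64 members with a mean of at least 1 FPKM in both groups, 6 were higher (9.38%) and 13 lower (20.3%), against 8.93% and 10.6% of 11738 in all. The median difference of these 64 was -0.19, against -0.32 for the 11738, so the order of the medians was the reverse of that over everything tested. At an unadjusted p under 0.05 there were 40 members, 15 higher and 25 lower, against 37.7% of all tested. The captured and RiboMinus libraries did not overlap for 19 members that were higher and 29 that were lower, against 28.6% and 26.7% of all tested.

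These calls need both RiboMinus libraries. Without RiboMinus replicate 1 or replicate 2, 0 members were called, and 14 and 7 genes in all; in those fits the lone RiboMinus library is assumed to vary like the captured ones. The split also moved with the scaling: after centring each library on its median gene 11 members were higher and 27 lower, and after quantile normalization 7 were higher and 13 lower, where the median of everything tested shifted by -0.51 and -0.43.

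In the mitochondrial chaperonin the lid and the ring went apart. HSPE1 stood at 104 and 96.3 FPKM before capture and at 1896, 1650 and 1782 after it in WT cells. All 3 captured libraries stood far above both others, by 4.14 ± 0.17 on the log2 scale (SE), a fitted fold of 17.6, with an adjusted p of 0.0011. About 834 and 630 fragments lay behind the RiboMinus values and 273, 205 and 332 behind the captured ones, so that the gene was well counted on both sides. HSPD1, the ring subunit encoded next to it, was at 354 and 331 FPKM in RiboMinus and at 227, 270 and 203 in the WT NAD-Capture libraries. Its captured values were lower in each library, by 0.56 on the log2 scale, but did not pass (adjusted p = 0.097), and they passed after centring (-1.06, adjusted p = 0.017), after quantile normalization (-1.30, adjusted p = 0.0076) and without WT NAD-Capture replicate 2 (-0.67, adjusted p = 0.043). The ratio of HSPE1 to HSPD1 was 0.293 and 0.291 in RiboMinus, 8.35, 6.10 and 8.79 in the WT NAD-Capture libraries, and 3.38, 7.56 and 8.53 in the DXO-KO-labelled libraries. This ratio of 2 genes within 1 library does not depend on the scaling between libraries. The difference of HSPE1 was between 3.59 and 4.19 in 14 alternative settings. It lost its call in 3 of them: with the replicate block, without RiboMinus replicate 1 and without RiboMinus replicate 2. HSPE1 has processed copies elsewhere in the genome, and how reads shared with them were placed is not given in the sources used here.

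In the HSP90 family, 1 of 3 genes was called. HSP90AA1, the stress-inducible cytosolic form, was at 422 and 429 FPKM in RiboMinus and at 1428, 1461 and 935 after capture, a difference of 1.55 ± 0.26 (SE) with an adjusted p of 0.014. The captured libraries lay above both RiboMinus libraries, and after quantile normalization the difference was 0.15 and no longer passed (adjusted p = 0.35). The call was lost in 5 of 14 alternatives, among them the common fit and the replicate block. HSP90AB1, the constitutive form, was at 539 and 514 FPKM against 805, 649 and 565, and HSP90B1, the form of the endoplasmic reticulum, at 189 and 184 against 266, 290 and 193. Both were slightly higher in each captured library, neither passed (adjusted p = 0.31 and 0.27), and the sign turned after centring (-0.17 and -0.11) and, for HSP90AB1, after quantile normalization (-0.97). Within libraries, the ratio of HSP90AA1 to HSP90AB1 was 0.784 and 0.834 in RiboMinus, 1.77, 2.25 and 1.65 in the WT NAD-Capture libraries, and 1.22, 2.13 and 1.93 in the DXO-KO-labelled libraries.

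The cytosolic chaperonin subunits fell almost as a whole: 7 of 8 passed, 0 were higher, and their median difference was -1.06 on the log2 scale. The complex needs 1 copy of each of its subunits in each ring, but the RNA levels of the genes differed 3.36-fold and 3.25-fold between the lowest and the highest in RiboMinus. CCT3 was at 518 and 488 FPKM in RiboMinus and at 174, 221 and 132 after capture, a fall of the fitted level by 1.54 ± 0.26 (SE) on the log2 scale (adjusted p = 0.014). CCT4 was at 269 and 263 against 131, 101 and 101, and CCT6A was at 194 and 185 against 73.9, 88.5 and 84.8. The fitted differences of these were -1.26 and -1.20. CCT7 was at 401 and 373 against 190, 206 and 178, and CCT2 at 323 and 302 against 138, 192 and 114. TCP1, the subunit that gave the complex its other name, was at 208 and 209 against 124, 125 and 108, and CCT5 at 184 and 176 against 119, 100 and 81.8. For each of these 7 genes every captured value lay under both RiboMinus values. CCT8 stood apart, at 154 and 150 FPKM in RiboMinus and 146, 220 and 144 after capture, with a difference of 0.13 (adjusted p = 0.71) whose sign turned after centring (-0.38). The count of subunits called was 7 after centring and after quantile normalization too, and 6 without WT NAD-Capture replicate 1 or 2. It was 4 with all 8 libraries in a common fit and 0 with the replicate block. As said above, the calls needed both RiboMinus libraries.

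**Figure D2:**
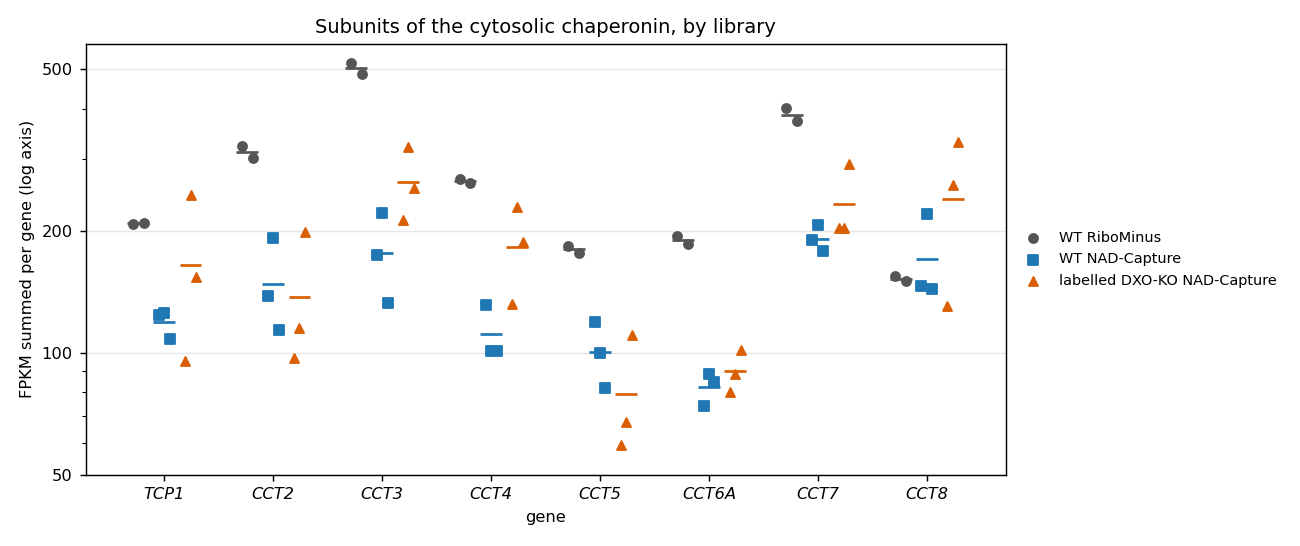
FPKM per gene (log axis) of the 8 cytosolic chaperonin subunits in each library, with 1 point per library and a bar at the mean of each group. For 7 subunits both RiboMinus points (grey) lie above all 3 WT NAD-Capture points (blue), for CCT8 they do not, and the DXO-KO-labelled libraries (orange) are widely spread.

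In the HSP70 and HSP110 families 13 of 15 genes were tested, 2 were higher and 2 lower, and there was 1 higher and 5 lower after centring, 1 and 3 after quantile normalization and 1 and 2 in the common fit. HSPH1, an HSP110 protein that exchanges nucleotide on HSP70, was at 59.2 and 55.3 FPKM in RiboMinus and 22.0, 17.8 and 14.2 after capture, a difference of -1.64 ± 0.24 (SE, adjusted p = 0.010). HSPA4, another HSP110 protein, was at 155 and 153 against 73.9, 51.6 and 42.0 (-1.48, adjusted p = 0.018). Both of these exchange factors were thus lower in every captured library. HSPA4L, a further HSP110 gene, did not share this fall and was not called. Its values in WT NAD-Capture ran from below both RiboMinus values to just above them, so the groups overlapped. The main HSP70 genes were not called. HSPA8 was at 660 and 610 FPKM against 444, 490 and 379 (adjusted p = 0.10), and HSPA9, the mitochondrial form, at 145 and 142 against 123, 122 and 79.8 (adjusted p = 0.28). HSPA5, the form of the endoplasmic reticulum known as BiP, was at 63.1 and 69.0 against 108, 104 and 68.0 (adjusted p = 0.26), and HSPA14, found on ribosomes, at 37.8 and 39.6 against 46.7, 62.6 and 24.7. The stress-inducible HSPA1B was at 114 and 101 against 103, 117 and 97.3 FPKM, a difference of -0.02 (adjusted p = 0.93) whose sign turned after quantile normalization (0.13) and without RiboMinus replicate 1 (0.06) or WT NAD-Capture replicate 3 (0.03). Its near-identical copy HSPA1A was listed at 0.252 and 0.154 FPKM in RiboMinus and at 0, 2.71 and 1.81 in the WT NAD-Capture libraries, so almost the whole signal of the pair was assigned to HSPA1B, and the split between them is uncertain.

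HSPA1L and HSPA12B were the 2 higher genes of this family. Both were scarce and entered the test only through the captured libraries. HSPA1L, a testis-rich HSP70 gene next to HSPA1A, was at 0.0803 and 0.0982 FPKM in RiboMinus and at 6.67, 13.0 and 15.5 after capture (3.47 on the log2 scale, adjusted p = 0.0070). Behind these values stood about 2 and 2 fragments in RiboMinus and 3, 5 and 9 in the captured libraries. HSPA12B, a distant HSP70 relative, was at 0.670 and 0.430 against 5.32, 4.13 and 4.12 FPKM (1.83, adjusted p = 0.026).

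Among the small heat shock proteins, HSPB1 was above 1 FPKM in both groups, while the other 5 of the 6 tested entered only through the captured libraries, and their count is no evidence of a direction. HSPB1, also known as HSP27, was at 20.2 and 23.4 FPKM in RiboMinus and at 142, 90.7 and 93.0 in the WT NAD-Capture libraries (2.24 ± 0.26, SE, adjusted p = 0.0055), on about 154 and 145 fragments against 19, 11 and 16. HSPB7, a cardiac small heat shock protein, was at 0.0349 and 0.0427 FPKM against 29.1, 31.6 and 27.0 (4.86, adjusted p = 0.0020), on 1 and 1 fragments against 15, 14 and 18. HSPB6, known from muscle, was at 0.147 and 0 FPKM against 36.5, 18.8 and 21.9 (4.59, adjusted p = 0.0027), on 2 and 0 fragments against 9, 4 and 7. So HSPB6 and HSPB7 had 2 fragments or fewer in each deep RiboMinus library and 4 to 18 in each shallow WT captured one. HSPB8 was at 0.933 and 0.507 against 2.87, 10.0 and 6.66 FPKM and missed the threshold (adjusted p = 0.053). HSPB2 and HSPB9 were each at 0 in at least 1 captured library.

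Of the J-domain proteins, 42 genes were tested: 4 DNAJA, 11 DNAJB and 27 DNAJC. Of the DNAJA genes 0 passed: DNAJA1, the main cytosolic partner of HSPA8, was at 163 and 151 FPKM against 203, 187 and 163, and DNAJA2 at 40.2 and 39.9 against 40.3, 38.4 and 35.5. Of the DNAJB genes 2 were higher and 0 lower, both having entered through the captured libraries alone, and after centring 2 were higher and 3 lower. DNAJB8 was at 0 and 0.230 FPKM in RiboMinus and 6.85, 13.3 and 19.5 after capture (3.57, adjusted p = 0.0085). DNAJB13, a gene of motile cilia, was at 0.167 and 0.136 against 6.16, 7.16 and 7.15 FPKM (2.76, adjusted p = 0.0070), on 3 and 2 fragments against 2, 2 and 3. The fragment numbers behind DNAJB13 were alike in both groups, while the FPKM that 1 fragment stands for was not. DNAJB1, the stress-inducible partner of HSP70, was at 37.7 and 36.5 FPKM against 16.5, 19.2 and 29.3 (adjusted p = 0.11), DNAJB11 of the endoplasmic reticulum at 33.8 and 32.6 against 17.2, 24.0 and 21.3 (adjusted p = 0.091), and DNAJB6 at 21.5 and 21.3 against 27.2, 32.2 and 32.7 (adjusted p = 0.13).

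In the DNAJC family, where the J domain is joined to many other domains, 3 genes were higher and 4 lower. The counts were 2 and 10 after centring, and 1 and 1 after quantile normalization and in the common fit. DNAJC11 and DNAJC7 lost their calls in 9 and 8 of 14 alternatives. The higher ones were DNAJC30, of the mitochondrial inner membrane (3.46 and 3.59 FPKM against 15.6, 18.2 and 17.3), DNAJC4 (4.25 and 4.88 against 18.7, 10.9 and 28.9) and DNAJC22 (1.71 and 1.87 against 11.2, 8.14 and 6.51), with differences of 1.99, 1.78 and 1.76. The lower ones were DNAJC11, of the mitochondrial contact sites (36.2 and 35.4 FPKM against 8.45, 8.31 and 19.1), DNAJC6, the neuronal auxilin (6.01 and 6.06 against 1.88, 2.19 and 1.46), DNAJC13 of endosomes (19.6 and 19.4 against 10.0, 7.53 and 6.69) and DNAJC7, which joins HSP70 to HSP90 (80.6 and 80.0 against 47.0, 39.1 and 25.1). Their differences were -1.60, -1.32, -1.19 and -1.14. In each of these 7 genes the captured and RiboMinus libraries did not overlap. DNAJC3, DNAJC8 and DNAJC9 did not pass (adjusted p = 0.070, 0.56 and 0.10). Among the genes that share only the prefix, the antisense gene DNAJC27-AS1 was called higher, at 0.0422 and 0.0517 FPKM against 4.70, 5.47 and 3.64 (2.41, adjusted p = 0.017), on 2 and 2 fragments against 4, 4 and 4.

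**Figure D3:**
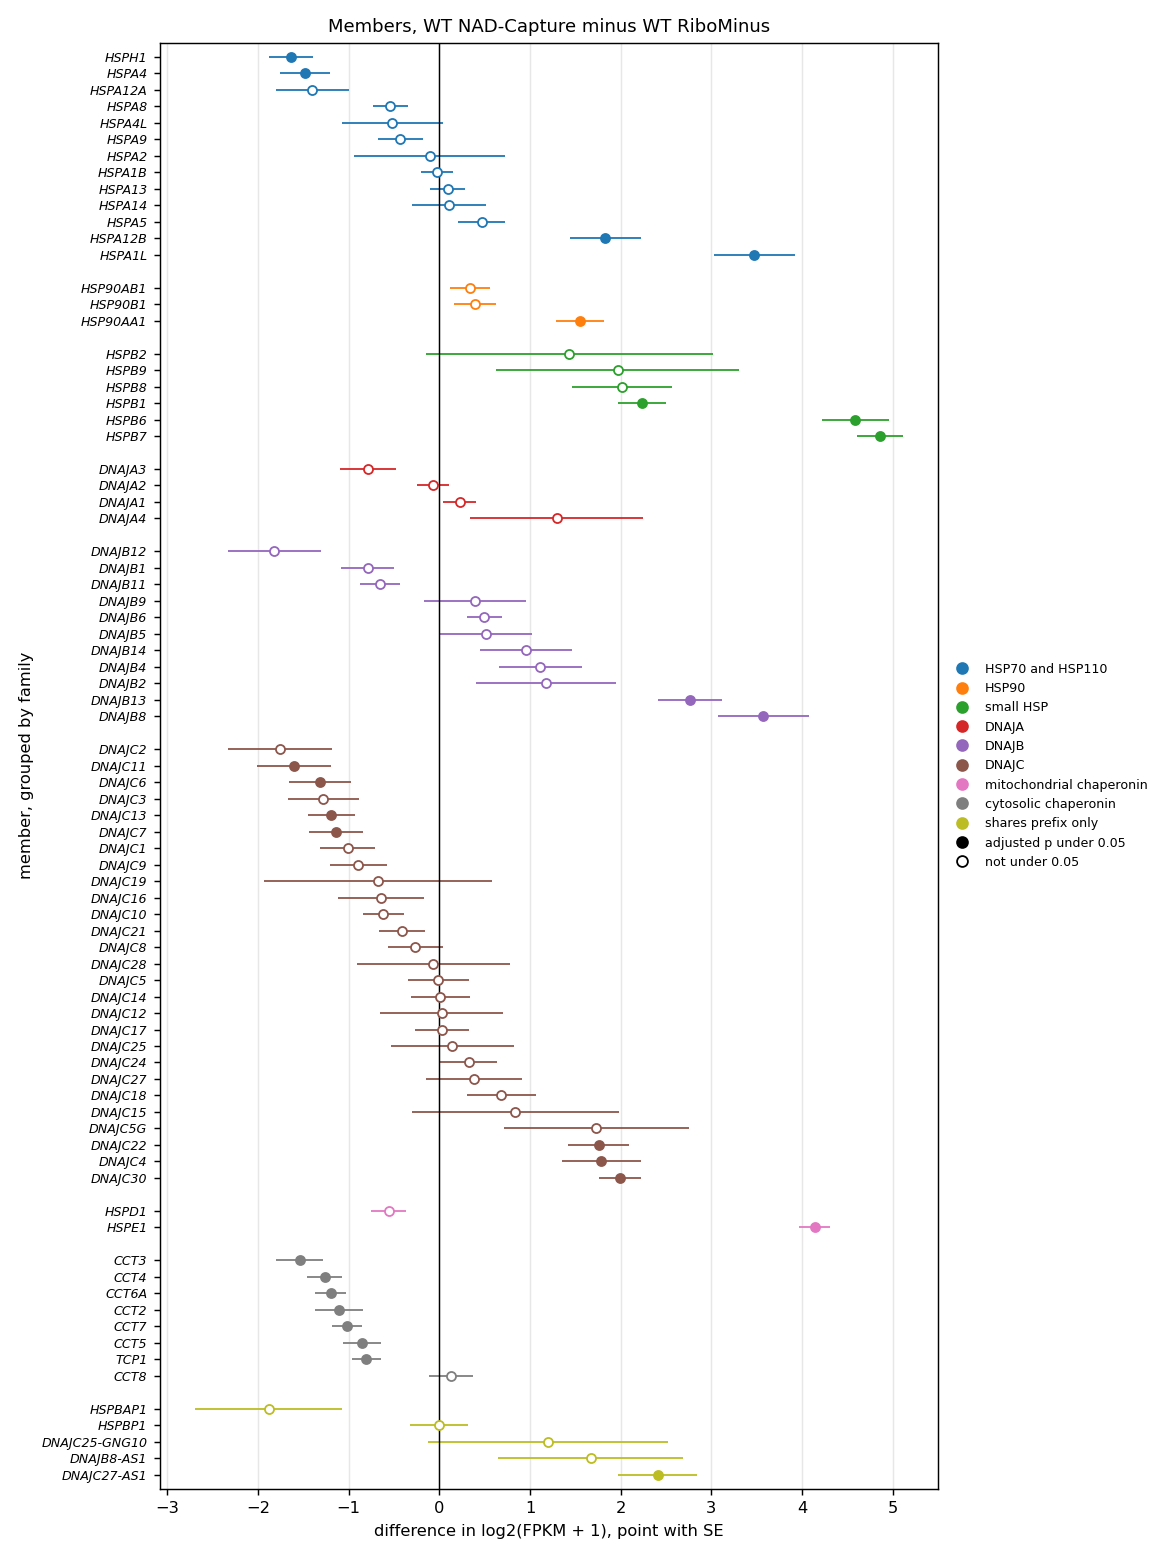
Difference in log2(FPKM + 1) between WT NAD-Capture and WT RiboMinus for each of the 79 genes tested, ordered within families, as a point with its SE, filled where the adjusted p was under 0.05. The cytosolic chaperonin lies to the left of 0 apart from CCT8, and HSPE1, HSPB6 and HSPB7 lie farthest to the right.

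Across the 78 members with a transcript length, the difference after capture had a Pearson correlation of -0.28 and a Spearman correlation of -0.28 with the length of the main transcript, a description across genes that share libraries and depth. HSPE1 and HSPB1, at 950 and 909 bases, are among the short ones. The part of length in the results was not tested.

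Some partners of these chaperones outside the group were lower too. Of 34 co-chaperones and folding partners on a fixed list (regulators, nucleotide exchange factors, HSP90 co-chaperones, prefoldin and others), 34 were tested, 0 rose and 5 fell from RiboMinus to WT NAD-Capture, with a median difference of -0.45. Over everything tested 16.6% were higher and 7.87% lower, with a median of 0.22. All 34 had a mean of at least 1 FPKM in both groups. Of the 11738 tested for which this held, 8.93% were higher and 10.6% lower, with a median of -0.32, so the list lay near that background. The lower ones were PFDN1, a subunit of the prefoldin that hands clients to the cytosolic chaperonin (50.7 and 46.3 FPKM against 13.6, 5.26 and 10.5), TRAP1, the mitochondrial HSP90 (120 and 119 against 42.1, 54.7 and 49.8), STIP1, which links HSP70 to HSP90 (195 and 187 against 93.9, 78.1 and 67.6), and FKBP4, an HSP90 co-chaperone (102 and 95.1 against 45.8, 51.7 and 29.8). Their differences were -2.28, -1.28, -1.26 and -1.23. The fifth, BAG6 (-0.88), was named after its values were seen, to complete the count.

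The second comparison asked how the captured RNA differed between the line labelled DXO-KO and the WT line. It showed no chaperone gene that passed: of 80 members tested 0 were called, where over all 18084 tested 14 were called (0.0774%, with 0.0387% higher and 0.0387% lower). At an unadjusted p under 0.05 there were 10 members, 3 higher and 7 lower, of 80, and 16.5% of all tested. The median difference of the members was 0.15 on the log2 scale, against -0.02 over everything tested. Of the 80, 9 had a mean under 1 FPKM in the DXO-KO-labelled libraries and entered only through the WT ones, and 1 entered the other way. Their direction was largely set by that choice, and they are part of the counts given here. Of the 70 members with a mean of at least 1 FPKM in both groups 0 were called. Their median difference was 0.26, against 0.10 for 14378 in all. The groups did not overlap for 13 members that were higher and 9 that were lower, against 11.6% and 11.5% of all tested. After quantile normalization, and with all 8 libraries in a common fit, 1 member was called, HSPB6. Over everything tested, the count of 14 was 6 without replicate 1 labelled DXO-KO, and 4, 5 and 3 without WT NAD-Capture replicates 1, 2 and 3.

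HSPB6 came nearest to the threshold. It was at 36.5, 18.8 and 21.9 FPKM in the WT NAD-Capture libraries and at 1.93, 0 and 0 in the DXO-KO-labelled libraries, a difference of -4.17 ± 0.64 (SE) with an adjusted p of 0.066. With a mean under 1 FPKM in the DXO-KO-labelled libraries, it entered the test only through the WT ones. Among the markers of other cell types, MYH7 went from 5.13, 4.76 and 0.800 FPKM to 0 in all 3. The others did not all do so: in the DXO-KO-labelled libraries INS was at 10.1, 22.9 and 0 FPKM and KRT5 at 2.36, 3.44 and 0. PECAM1 was at 1.19, 0 and 2.92 there, and CD3E, at 0 in WT capture, at 0.930, 0 and 0. The part of other cell types' RNA was not tested. For HSPB6 every WT value lay above every DXO-KO-labelled value, on about 9, 4 and 7 fragments against 2, 0 and 0. The adjusted p was 0.043 after quantile normalization and 0.021 in the common fit, and between 0.074 and 0.27 when 1 library was left out. HSPB7 was at 29.1, 31.6 and 27.0 against 3.72, 21.6 and 4.62 FPKM (-1.84, adjusted p = 0.20) and DNAJB8 at 6.85, 13.3 and 19.5 against 1.40, 3.18 and 0 (-2.61, adjusted p = 0.16). All 3 genes are scarce, and for each the DXO-KO-labelled values lay below the WT ones without passing the test.

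On the higher side, DNAJB4, a J-domain protein of the DNAJB1 type, was at 15.3, 11.8 and 5.91 FPKM in the WT NAD-Capture libraries and at 23.8, 39.0 and 61.1 in the DXO-KO-labelled libraries (1.80 ± 0.48, SE, adjusted p = 0.15). DNAJC6 was at 1.88, 2.19 and 1.46 against 5.32, 9.19 and 11.1 FPKM (1.70, adjusted p = 0.21), and HSPB1 at 142, 90.7 and 93.0 against 146, 197 and 288 (0.92, adjusted p = 0.25). None of these groups overlapped, yet none of the 3 genes passed. HSPE1 spread widely, from 631 to 3250 FPKM in the DXO-KO-labelled libraries, around a difference of -0.002 ± 0.67 (SE). HSP90AA1 spread too, at 577, 1723 and 1979 FPKM against 1428, 1461 and 935 (difference 0.004). The cytosolic chaperonin subunits had differences from -0.37 (CCT5) to 0.69 (CCT4), with adjusted p of 0.31 or more. CCT4 was the subunit whose groups did not overlap, at 132, 228 and 187 FPKM against 131, 101 and 101. Of the 34 co-chaperones 0 were called, with a median difference of 0.35.

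**Figure D4:**
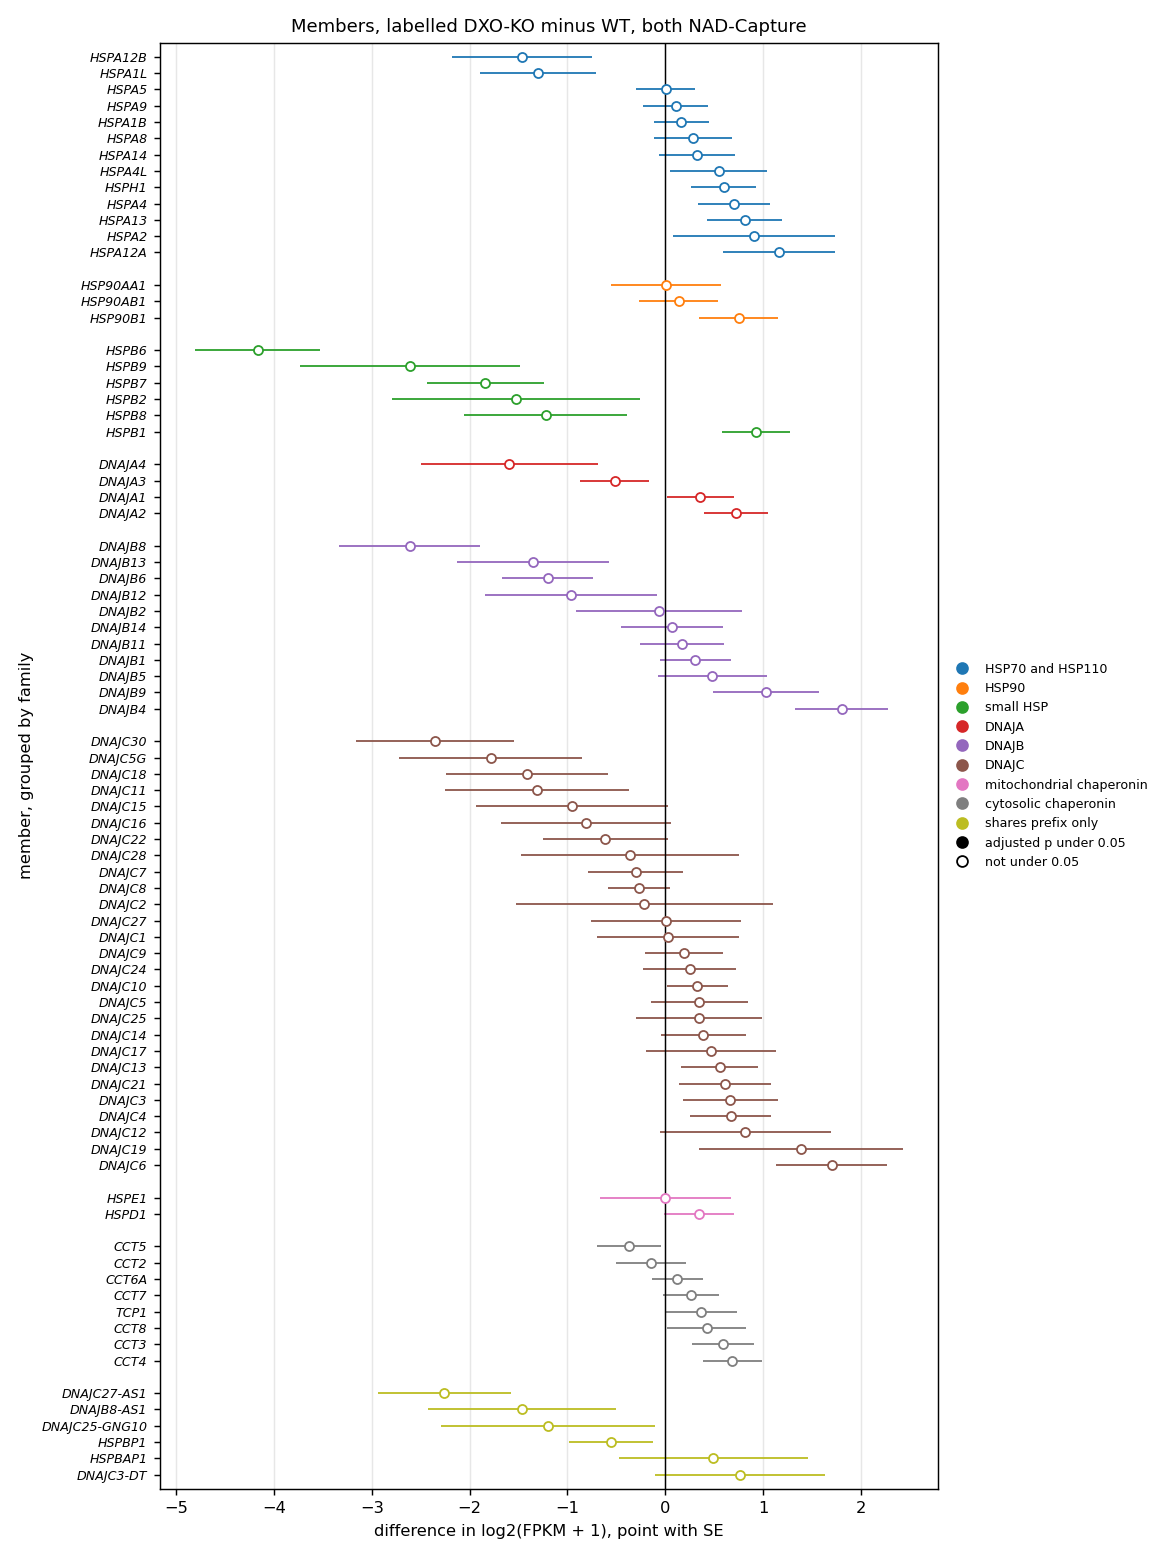
Difference in log2(FPKM + 1) between the NAD-Capture libraries labelled DXO-KO and WT for each of the 80 genes tested, ordered within families, as a point with its SE. No point is filled, since 0 of 80 had an adjusted p under 0.05; HSPB6 lies farthest to the left at -4.17 and DNAJB4 farthest to the right at 1.80.

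The third comparison set the NAD-Capture libraries labelled DXO-KO against WT RiboMinus. It shares the RiboMinus libraries with the first comparison, so the values of the 2 are not independent. Of 69 members tested 3 were called, all higher, while over all 15329 tested 3.29% were called, 2.42% higher and 0.874% lower. At an unadjusted p under 0.05 there were 19 members, 8 higher and 11 lower, against 21.1% of all tested. The groups did not overlap for 18 members that were higher and 20 that were lower, against 24% and 20.2% of all tested. The median difference was 0.07 for the members and 0.20 for everything tested. Of the 69, 4 had a RiboMinus mean under 1 FPKM and entered only through the captured libraries, and 0 of these were called. Of the 65 members with a mean of at least 1 FPKM in both groups, 4.62% were higher and 0 lower, against 1.8% and 0.86% of 11744 in all. Their median difference was -0.22, against -0.07 for the 11744.

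HSPB1, at 20.2 and 23.4 FPKM in RiboMinus, was at 146, 197 and 288 in the DXO-KO-labelled libraries (3.16 ± 0.34, SE, adjusted p = 0.022). DNAJB4 was at 5.24 and 3.37 against 23.8, 39.0 and 61.1 FPKM (2.92, adjusted p = 0.040), and DNAJC4 at 4.25 and 4.88 against 34.1, 32.5 and 23.0 (2.45, adjusted p = 0.025). All 3 lay above RiboMinus in each library. HSPE1 differed by 4.13 ± 0.77 (SE), nearly the value in the first comparison, but with its wide spread it did not pass (adjusted p = 0.054). It passed in 7 of 14 alternatives, among them that without replicate 1 labelled DXO-KO (4.88, adjusted p = 0.024). Of the cytosolic chaperonin subunits 0 of 8 passed, and 7 had negative differences, with CCT8 at 0.55. After quantile normalization 6 subunits were called lower, without DXO-KO-labelled replicate 3 there were 3, and after centring, in the common fit, without DXO-KO-labelled replicate 1 and among genes above 0 in every library there was 1 each. CCT2, CCT5 and CCT6A had -1.25, -1.23 and -1.08, and for 6 subunits the groups did not overlap. Of the 34 co-chaperones 0 were called. The count of 3 members was 8 without replicate 1 labelled DXO-KO, 0 without replicate 2 and 13 without replicate 3, and 0 without RiboMinus replicate 1 or 2. After centring there were 4 higher and 3 lower, and after quantile normalization 4 higher and 10 lower.

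Some chaperone genes hold small RNA genes within their annotated span. Whether these lie in introns or exons was not checked. On the same strand inside members there were 8 small RNA genes in 5 hosts, of which 3 were above 0 in any library. SNORA20, a small nucleolar RNA of 132 bases that guides pseudouridylation and lies within TCP1, was at 0 and 83.0 FPKM in RiboMinus, at 13077, 12014 and 7644 in the WT NAD-Capture libraries and at 25379, 73668 and 155879 in the DXO-KO-labelled libraries. Its differences were 10.18 (adjusted p = 0.016) and 12.82 (adjusted p = 0.039) against RiboMinus and 2.64 between the captured groups (adjusted p = 0.43). So the small RNA was higher after capture where the RNA of its host TCP1 was lower in the WT comparison. FPKM of so short an RNA depends strongly on the length correction, and its absolute level should not be set beside that of TCP1. MIR3652, within HSP90B1, was at 0 in RiboMinus, at 0, 1026 and 1305 FPKM in the WT NAD-Capture libraries and at 468, 1543 and 0 in the DXO-KO-labelled libraries. SNORA15, within CCT6A, was above 0 in 1 RiboMinus library and 1 library labelled DXO-KO.

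The promoter table held 80 of the 89 genes. The heat shock element was found in 7 of 80 (8.75%), namely DNAJA1, DNAJB6, HSP90AA1, HSP90AB1, HSPA6, HSPA8 and HSPD1, and in 166 of 27305 genes in all (0.608%). Only exact matches inside the windows were counted. A gene without one, such as HSPA1A, HSPA1B, HSPH1, DNAJB1 or HSPB1, is therefore not shown to lack the element. HSP90AA1 was the 1 of 6 tested that passed in the first comparison, and the median difference of the 6 was 0.28 there, 0.21 between the captured groups and 0.13 in the third comparison. HSPA6, a strictly heat-inducible HSP70 gene, was at 0 in both RiboMinus libraries and at or under 2.41 FPKM elsewhere, too low to be tested. Of 55 members with a single annotated start that were tested in the first comparison, 28 had A there (50.9%), against 46.9% of 9613 genes, and 21 had G (38.2%). The median difference after capture was 0.06 for members that start with A and 0.03 for those with G. Over all genes tested it was 0.26 and -0.08. For the 6 members that start with C it was -0.21, against 0.32 over all genes with C. With T, at which 0 members start, the median over all genes was 1.14. A was thus not the start with the highest median over all genes, and differences between starts were not tested. HSPE1 has G at its annotated start, as the sequence above shows.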

How the data were processed

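Per the labels' protocols, total RNA was either depleted of ribosomal RNA or taken through NAD-Capture. Per the submitters' processing notes, TopHat2 (version 2.1.1), Bowtie2 (2.2.8.0) and Cuffdiff were used with build hg19. The authors deposited FPKM per RefSeq transcript for the 8 libraries, with no counts. Rows were matched to symbols by accession after a copy suffix (on 3309 rows) was removed: 52028 of 53216 rows (97.8%) matched 25695 symbols, and the 172 rows of the 89 members were summed per gene. HSPB11 is listed as IFT25 in the symbol table and was not a member. Left out were 4 pseudogenes.

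Depth was estimated from 7076 single-row transcripts of 1500 to 6000 bases, taking FPKM times length less 200 bases: the share of low values no more than 4% away from a multiple of the step was 71.0% to 73.3%. Fragment numbers are for a gene's main transcript row and cover counting only.

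Differences were tested with limma (3.58.1, R 4.3.3) on log2(FPKM + 1), with a variance trend, on genes with a mean of at least 1 FPKM in the libraries compared, using only the 2 groups compared, with Benjamini-Hochberg adjustment over everything tested and a threshold of 0.05. The tests were checked on simulated data. Alternatives tried were 0.1 as the pseudocount, no filter, a mean of at least 10 FPKM, values above 0 in every library, centring, quantile normalization, single transcripts, all libraries in a common fit, a replicate block and each library left out. The members and lists were chosen with earlier results of these data known. Named were 31 core members, the members that passed (up to 15 in each direction), up to 4 of 34 co-chaperones, small RNA genes inside members and DXO. HSPA4L, HSPB2, HSPB8, HSPB9, HSPA6 and, in the second comparison, HSPB6, HSPB7, DNAJB8, DNAJB4 and DNAJC6 were named after their values were seen. Promoter windows of 300 bases and their letters are from RefSeq (GRCh38.p14), a later build than that of the FPKM values, and were joined by symbol only.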

Additional observations from a re-analysis of the deposited data

How the results depend on the processing

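Same-numbered libraries of the 2 captured groups showed no shared deviation (correlations of -0.017, -0.0051 and -0.033 over genes with a mean of at least 1 FPKM after capture). At the depth of these libraries counting alone could hide a pairing, so whether the numbers pair libraries was not settled. With the replicate block 4, 0 and 0 genes and 0, 0 and 0 members were called in the comparisons in the order given below. Labelled DXO-KO against WT NAD-Capture (14 genes, 0 members): the genes called were 4 with a pseudocount of 0.1, 3 with no filter, 4 at a mean of at least 10 FPKM, 75 above 0 in every library, 30 after quantile normalization, 8 for single transcripts, 443 in the common fit and 3 to 17 with 1 library left out. The members called were 1 after quantile normalization and 1 in the common fit. WT NAD-Capture against RiboMinus (4245 genes, 26 members): 2383 genes at 10 FPKM, 2499 after quantile normalization, 2707 in the common fit, and 7 to 5475 with 1 library left out. The members called were 16 in the common fit and 0 to 34 with 1 library left out; their median difference was -0.43 at 10 FPKM and -0.48 after centring. Labelled DXO-KO against RiboMinus (505 genes, 3 members): 68 genes and 0 members with no filter, 5 members at 10 FPKM, 1527 genes and 10 members above 0 in every library, 7 members after centring, 833 and 14 after quantile normalization, 3148 and 12 for single transcripts, 884 and 6 in the common fit, and 0 to 1506 genes and 0 to 13 members with 1 library left out. The causes were not tested.

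Signs turned for the following log2 differences, of which HSP90AB1 after quantile normalization passed the threshold against RiboMinus. After centring: HSPE1 0.13 between the captured groups; HSPA5 -0.041, HSPA14 -0.40, HSP90AB1 -0.17, HSP90B1 -0.11, DNAJA1 -0.28, DNAJB6 -0.0085 and CCT8 -0.38 in WT NAD-Capture against RiboMinus; HSPA1B -0.12 in DXO-KO-labelled libraries against RiboMinus. After quantile normalization: HSPA8 -0.041, HSPA5 -0.32, HSPA9 -0.25, HSPA1B -0.19, HSP90AA1 -0.46, HSP90AB1 -0.31, DNAJB11 -0.022, DNAJC9 -0.018, TCP1 -0.0092, CCT6A -0.24 and CCT7 -0.032 between the captured groups; HSPA1B 0.13, HSP90AB1 -0.97 and DNAJA2 0.24 in the WT comparison with RiboMinus; HSPA1B -0.050, HSP90AA1 -0.23 and HSP90AB1 -1.20 in DXO-KO-labelled libraries against it. For single transcripts: against RiboMinus, HSP90AB1 -0.049 in WT and DNAJB1 0.27 in DXO-KO-labelled libraries. With the replicate block: HSPA1B 0.035 in WT. With 1 library left out, the range between the captured groups was -0.44 to 0.74 for HSPE1, -0.45 to 0.062 for CCT2, -0.21 to 0.12 for HSPA5, -0.13 to 0.30 for HSPA9, -0.045 to 0.61 for HSPA14, -0.33 to 0.56 for HSP90AA1, -0.11 to 0.45 for HSP90AB1, -0.17 to 0.56 for DNAJB11, -0.66 to 0.20 for DNAJC7 and -0.092 to 0.37 for DNAJC9. It was -0.18 to 0.47 for HSPA14, -0.069 to 0.23 for CCT8 and -0.11 to 0.062 for HSPA1B in WT against RiboMinus, and -0.54 to 0.097 for HSPA8, -0.40 to 0.11 for HSPD1 and -7.34e-05 to 0.31 for HSPA1B in DXO-KO-labelled libraries against RiboMinus. Depth limits the scarce genes: in WT NAD-Capture 1 fragment per kb is worth 4.02 to 6.05 FPKM.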
